A study of Mus musculus with 6 samples.

Results

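The genes described here take up, transport and burn fatty acids in the mouse heart, together with the receptor Ppara, its coactivators and well known target genes of the PPAR receptors. They were chosen by name and not by a cut on their values, though with earlier results of these data known. All 39 of the 39 listed genes were found among the 18158 features measured. Messenger RNA came from whole ventricles of 6 CD1 mice, an outbred stock, 3 months of age, with 1 library per mouse. Injections went on for 14 days: 3 mice received PBS daily (vehicle), and 3 received paromomycin with neomycin (Paro/Neo), a pair of aminoglycoside antibiotics, intraperitoneally at 150 mg/kg and 2 times a day. The study's design text presents the comparison as one of expression under suppressed activity of the transcription factors Meis1 and Hoxb13. Values are in TPM (transcripts per 1000000), a unit scaled for transcript length and library total, so that levels can be compared between genes. Wherever 3 values are given for a group they stand in the order of replicates 1 to 3, as numbered in the sample titles.

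Fatty acids are the main fuel of the adult heart. They are released from circulating triglyceride by lipoprotein lipase on the capillary wall, cross the endothelium and the cell membrane with the help of CD36 and transport proteins, and are bound by fatty acid binding proteins, activated to acyl-CoA and either stored in lipid droplets or passed into mitochondria by the carnitine shuttle. There the beta-oxidation spiral shortens them by repeated dehydrogenation, hydration, a further dehydrogenation and thiolysis, with electrons leaving through the electron transfer flavoprotein. PPAR-alpha, a nuclear receptor activated by fatty acids, controls many of these genes together with the PGC-1 coactivators, and its targets Pdk4, Angptl4 and Ucp3 are known to respond to fasting.

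No member differed between the groups past the threshold of 0.05 on the Benjamini-Hochberg adjusted p (limma on log2(TPM + 1), 12409 genes tested, all 39 members among them). The smallest adjusted p among the members was 0.454, for Slc27a1. In the same fit 0.137% of all tested genes passed, 0.121% higher and 0.0161% lower in Paro/Neo hearts. Without adjustment, 4 members were higher and 1 lower at p under 0.05, so 5 of 39 (12.8%), where the shares over all genes were 3.24% higher, 4.37% lower and 7.61% in all. The signs of the changes were mixed, with 22 members above 0 and 17 below it, and the median over the members was a log2 change of 0.04, against -0.02 over all genes tested, of which 46.3% were higher. The 95% interval of the log2 change lay within a 2-fold change either way for 37 of 39 members and within 1.5-fold for 29. The exceptions to the 2-fold limit were Angptl4 and Ucp3, whose levels were far apart among the vehicle mice.

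**Figure D1:**
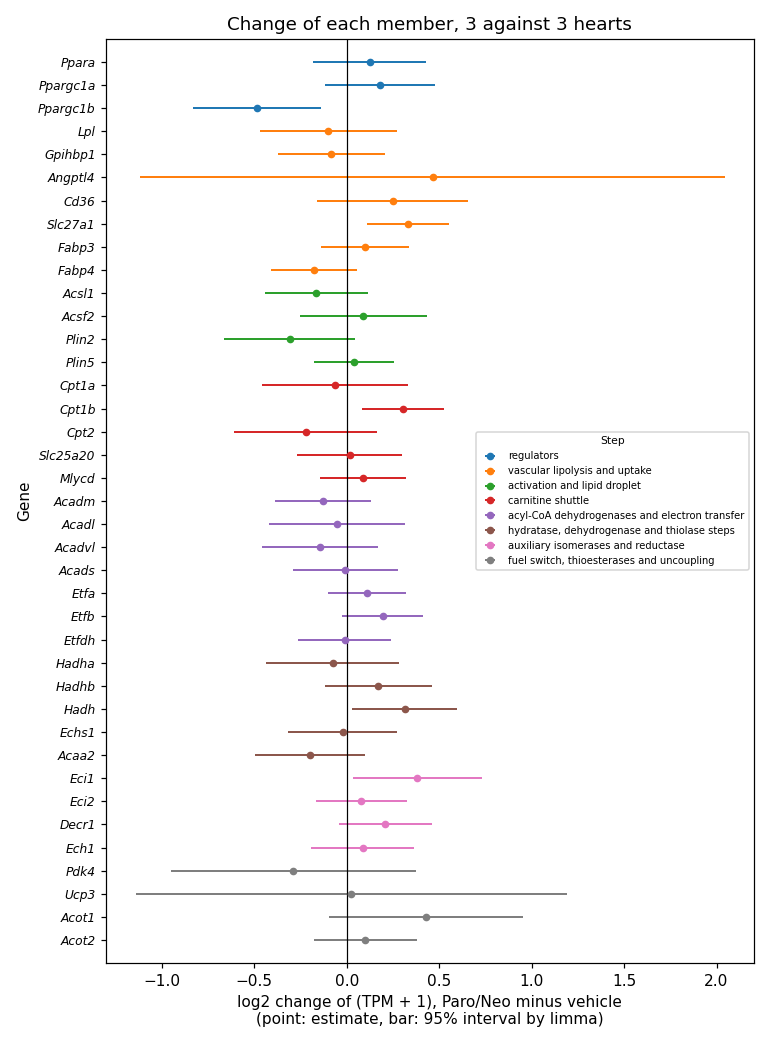
The log2 change of each member in Paro/Neo against vehicle hearts on the log2(TPM + 1) scale (horizontal axis), with its 95% interval by limma, ordered and coloured by step of the pathway. Most intervals span 0 and are narrow, while those of Angptl4 and Ucp3 reach beyond a 2-fold change in both directions.

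The sum over the members, which is weighted to the most abundant genes, was a near constant share of the messenger RNA. The 7 genes of vascular lipolysis and uptake alone made up 1.89 to 2.02% of the library. Smaller steps could vary more, as the 4 genes of fuel switch, thioesterases and uncoupling summed to 193 to 449 TPM in vehicle and 234 to 248 TPM in Paro/Neo hearts. Summed over the 39 members, TPM came to 3.92, 3.60 and 3.92% of the library in the vehicle hearts and 3.86, 3.91 and 3.86% in the Paro/Neo hearts, so the lowest and the highest sums were both from vehicle mice. Among the members 12 had a mean level of 1000 TPM or more, led by Fabp3 (8199 TPM over the 6 hearts), Lpl (5183) and Fabp4 (3602), and 3 were under 10 TPM, namely Acsf2 (3.02), Ppargc1b (4.32) and Acot1 (6.92). The read number behind each value, inferred from ratios of TPM of the same gene between libraries, summed to between 9556387 and 15969980 per library. Of the weakest members, Acsf2 had 39 to 74 reads per library, Ppargc1b 79 to 150 and Acot1 16 to 43.

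Paro/Neo replicate 1 stood apart over all genes, and vehicle replicates 1 and 2 departed among the members. Paro/Neo replicate 1 had the lowest mean correlation with the other libraries (0.975, against 0.981 to 0.985) and the most extreme score on the leading principal component. It was the highest or the lowest of the 6 libraries for 27 of 39 members (69.2%), and for 59.8% of all genes tested. Vehicle replicate 1 did not stand apart over all genes, but it had by far the highest levels of Angptl4, Ucp3 and Pdk4. Vehicle replicate 2 was the lowest of the 6 libraries for 14 of 39 members, and for 14.4% of all genes tested. It was the highest or the lowest for 43.6% of the members and for 34.7% of all genes tested. Vehicle replicate 1 and Paro/Neo replicate 1 were also the lowest and the highest for 3 of 4 atrial genes, Myl7, Myl4 and Sln. The 4 genes were picked after their values were seen. The atrial myosin light chain gene Myl7 was at 25.7, 112 and 125 TPM in the vehicle hearts and 221, 61.8 and 97.9 TPM in the Paro/Neo hearts, and Sln, the sarcolipin gene of atrial muscle, at 12.4, 46.6 and 39.1 and 93.7, 18.1 and 33.6 TPM. The fourth, Nppa, the gene of atrial natriuretic peptide, went another way, at 622, 825 and 616 TPM in the vehicle hearts and 239.6, 448 and 1067 TPM in the Paro/Neo hearts, lowest in Paro/Neo replicate 1. Ventricular and general cardiomyocyte genes were abundant in all 6, with Myl2 at 51694 to 69835 TPM. Whether the share of atrial tissue has a part in the values below was not tested. Because these are whole ventricles, fewer cells of a type and less RNA per cell cannot be told apart.

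**Figure D2:**
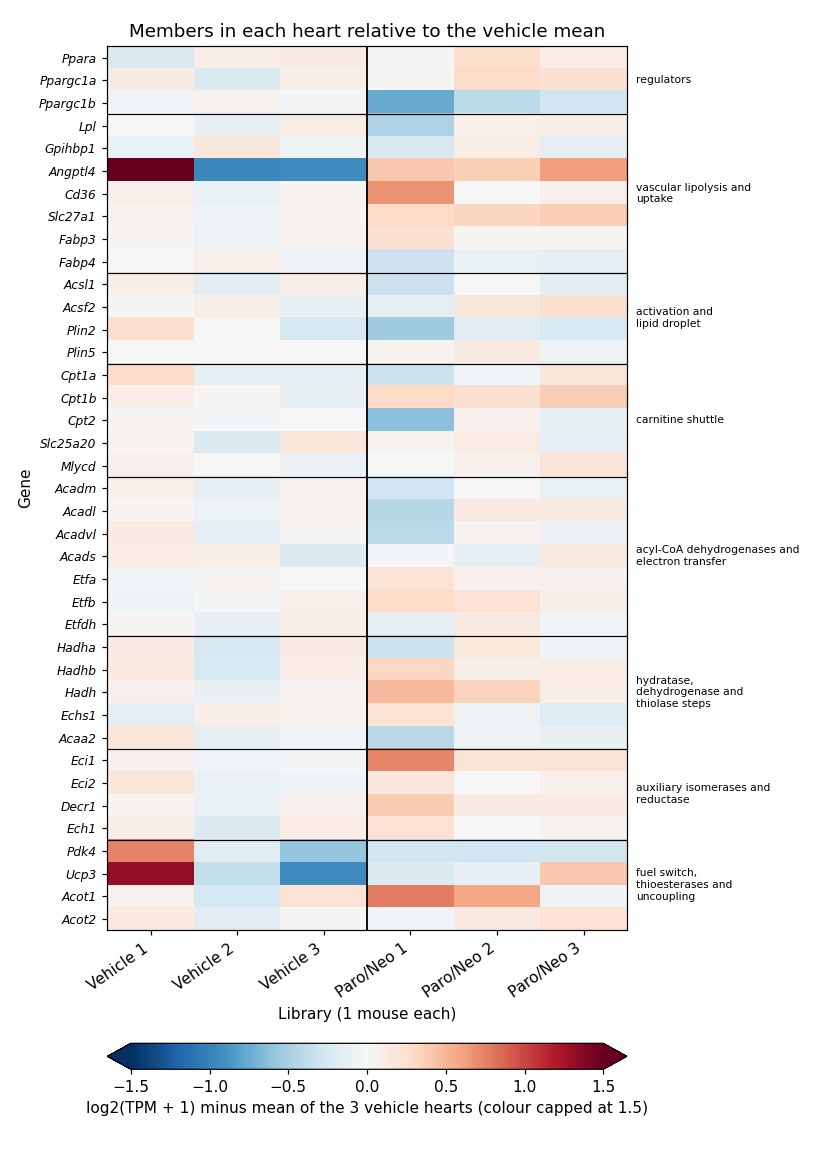
Level of each member in each heart, as log2(TPM + 1) minus the mean of the 3 vehicle hearts, with genes in rows by step and 1 column per mouse. The strongest colours are those of Angptl4, Ucp3 and Pdk4 in the vehicle hearts and of single genes such as Eci1, Cd36, Acot1 and Ppargc1b in Paro/Neo replicate 1.

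Among the regulators, the receptor gene Ppara was at 19.4, 24.3 and 24.7 TPM in the vehicle hearts and 22.5, 27.5 and 24.7 TPM in the Paro/Neo hearts, overlapping ranges with a log2 change of 0.12 ± 0.13 (SE, adjusted p 0.825). Ppargc1a, which encodes the coactivator PGC-1alpha, was at 57.6, 45.3 and 56.2 TPM in the vehicle hearts and 53.5, 64.6 and 62.1 TPM in the Paro/Neo hearts (log2 change 0.18 ± 0.13 SE, adjusted p 0.762). Its paralog Ppargc1b, the gene of PGC-1beta, ran the other way, at 5.01, 5.43 and 5.12 TPM in the vehicle hearts and 2.67, 3.68 and 4.01 TPM in the Paro/Neo hearts. Each Paro/Neo heart lay below each vehicle heart for Ppargc1b, a ratio of means of 0.666 (log2 change -0.49 ± 0.15 SE, adjusted p 0.483), and the lowest value was that of Paro/Neo replicate 1. Without that library the log2 change was -0.35 (adjusted p 0.549, range over the 17 alternatives 0.295 to 0.882). As a ratio of levels, Ppargc1a to Ppargc1b was at most 11.5 in the vehicle hearts and at least 15.5 in the Paro/Neo hearts. Ppargc1b alone already separated the groups, so the ratio is not a separate result. The share of other gene pairs whose ratios part the groups was not computed.

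The groups also failed to overlap for 8 other members, so 9 of 39 in all (23.1%), 7 with higher and 2 with lower values after Paro/Neo. Over all genes tested the share was 14.3%, made up of 6.04% higher and 8.22% lower. The higher 7 were Slc27a1, Cpt1b, Etfa, Etfb, Hadh, Eci1 and Decr1, and the lower 2 were Ppargc1b and Fabp4. Of the higher 7, the lowest heart was vehicle replicate 2 for Slc27a1, Hadh, Eci1 and Decr1. For Etfa and Etfb it was vehicle replicate 1, and for Cpt1b vehicle replicate 3.

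Lipolysis at the vessel wall and uptake came next in the order of the pathway. Lpl, the gene of lipoprotein lipase on chromosome 8 at 68880491 to 68907448 (GRCm38), was at 5334, 4912 and 5741 TPM in the vehicle hearts and 3859, 5585 and 5667 TPM in the Paro/Neo hearts, where Paro/Neo replicate 1 was lowest and the other 5 hearts lay close together. Gpihbp1 encodes the capillary protein that anchors the lipase, and was at 137, 165 and 140.4 TPM in the vehicle hearts and 125, 159 and 134 TPM in the Paro/Neo hearts (log2 change -0.08 ± 0.13 SE, adjusted p 0.876). Neither gene separated the groups. The direction for Lpl turned to a log2 change of 0.08 without Paro/Neo replicate 1.

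Angptl4, a secreted inhibitor of lipoprotein lipase, had the widest spread of all members. It was at 27.3, 2.84 and 2.89 TPM in the vehicle hearts and 8.90, 8.64 and 10.6 TPM in the Paro/Neo hearts, from 27 to 426 reads per library. Vehicle replicate 1 was 9.56 times the mean of the other 2 vehicle hearts, an excess that ranked 4 among 12409 genes, and the 3 treated hearts lay close together between these extremes. Within-group spread put Angptl4 at percentile 99.5 of all genes tested. With all 6 libraries the log2 change was 0.46 ± 0.69 (SE, adjusted p 0.871, limma). Without vehicle replicate 1 it was 1.42 ± 0.15 with an adjusted p of 0.0551, the smallest of any member in the 17 alternatives, whose range for this gene was 0.0551 to 0.998. Against the mean of vehicle replicates 2 and 3, the mean of the treated hearts was 3.28 times as high.

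Of the genes that carry fatty acids into the cell, Cd36, the main fatty acid translocase of muscle, was at 2553, 2270.2 and 2468 TPM in the vehicle hearts and 3868, 2427 and 2551 TPM in the Paro/Neo hearts. Only Paro/Neo replicate 1 was high, at 1.55 times the mean of the other 2 treated hearts, and the remaining 5 hearts lay within a narrow band. The log2 change of Cd36 was 0.25 ± 0.18 (SE, adjusted p 0.760), and 0.04 without that library. Slc27a1, which encodes the transport protein FATP1, was at 21.9, 19.9 and 21.7 TPM in the vehicle hearts and 26.3, 26.8 and 27.5 TPM in the Paro/Neo hearts, a ratio of means of 1.27 (log2 change 0.33 ± 0.10 SE, adjusted p 0.454). All 3 treated hearts stood above all 3 vehicle hearts with little spread in either group. Without vehicle replicate 1 and Paro/Neo replicate 1, the log2 change of Slc27a1 was 0.37 (adjusted p 0.470, range over all alternatives 0.217 to 0.882).

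The cytosolic carriers followed, with the most abundant member. Fabp3, the heart type fatty acid binding protein, was at 8044, 7508 and 8176 TPM in the vehicle hearts and 9248, 8076 and 8143 TPM in the Paro/Neo hearts (log2 change 0.10 ± 0.10 SE, adjusted p 0.821). Fabp4, expressed in capillary endothelium, adipocytes and macrophages, was at 3803, 4011 and 3649.8 TPM in the vehicle hearts and 3082, 3564 and 3502 TPM in the Paro/Neo hearts, each treated heart below each vehicle heart (log2 change -0.18 ± 0.10 SE, adjusted p 0.723). Of 14 endothelial markers 12 had negative and 2 positive log2 changes, none past the threshold (smallest adjusted p 0.261, limma, 3 at an unadjusted p under 0.05), and their summed levels overlapped, at 839 to 940.3 TPM in vehicle and 668 to 881 TPM in Paro/Neo hearts. All 8 fibroblast markers had negative changes (smallest adjusted p 0.434, 4 at an unadjusted p under 0.05), with sums of 2741 to 2844 TPM and 2429 to 2679 TPM that did not overlap, as had all 5 erythroid genes, with overlapping sums (smallest adjusted p 0.643). The 11 adipocyte markers summed to 71.6 to 81.6 TPM in vehicle and 79.5 to 99.9 TPM in treated hearts. Of the 5 that could be tested, 4 had positive and 1 negative log2 changes (smallest adjusted p 0.633, limma). Cidea had the highest level of that list, at 47.9, 45.6 and 46.1 TPM in the vehicle hearts and 59.3, 61.5 and 49.1 TPM in the Paro/Neo hearts, higher in each treated heart (adjusted p 0.633). Car3 was at 6.55 to 25.3 TPM, Adipoq at 1.91 to 4.01 TPM, Lep at 0 to 0.332 TPM and Elovl3 at 0 in all 6. The 9 macrophage markers summed to 569 to 698 TPM in vehicle and 674 to 715 TPM in treated hearts. Of these 9, 8 had positive and 1 negative log2 changes (smallest adjusted p 0.320, limma, 1 at an unadjusted p under 0.05). The part of these cell types in the Fabp4 and Gpihbp1 values was not tested.

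**Figure D3:**
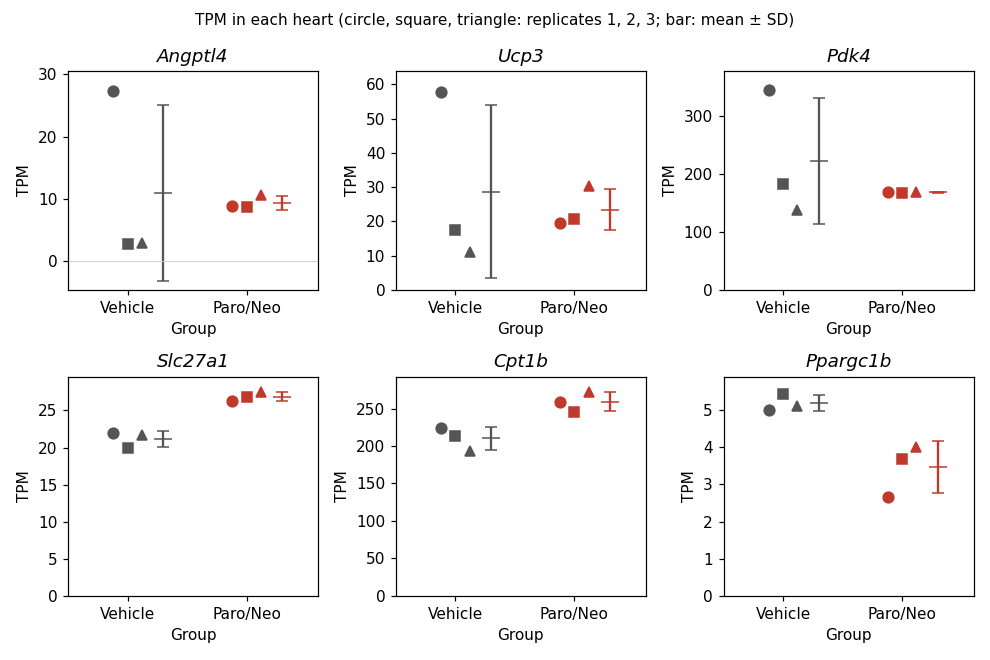
TPM of 6 members in each heart, by group, with replicates 1 to 3 as circle, square and triangle and the mean ± SD beside them. In the upper row vehicle replicate 1 lies far above every other heart for Angptl4, Ucp3 and Pdk4, and in the lower row the groups do not overlap for Slc27a1, Cpt1b and Ppargc1b.

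Activation to acyl-CoA and storage gave no separation of the groups. Plin2, which coats lipid droplets in most cells, was at 97.0, 81.0 and 69.1 TPM in the vehicle hearts and 55.9, 72.9 and 69.6 TPM in the Paro/Neo hearts, highest in vehicle replicate 1 and lowest in Paro/Neo replicate 1 (log2 change -0.31 ± 0.15 SE, adjusted p 0.695). Plin5, the droplet protein of oxidative muscle, was the steadiest of the vehicle values, at 72.7, 73.0 and 73.3 TPM in the vehicle hearts and 75.9, 80.3 and 69.4 TPM in the Paro/Neo hearts (log2 change 0.04 ± 0.09 SE, adjusted p 0.930). Acsl1 (the main acyl-CoA synthetase of the heart) was at 563 TPM ± 55.7 against 503 TPM ± 55.7 and Acsf2 at 2.89 TPM ± 0.280 against 3.16 TPM ± 0.546 (mean ± SD over 3 mice, vehicle first).

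The carnitine shuttle begins with an outer membrane transferase that has several isoforms. Cpt1b, the muscle isoform on chromosome 15 at 89416405 to 89425863 (GRCm38), was at 224, 213 and 194 TPM in the vehicle hearts and 259, 246 and 272 TPM in the Paro/Neo hearts, a ratio of means of 1.23 (log2 change 0.30 ± 0.10 SE, adjusted p 0.496). The groups did not overlap for Cpt1b, and Paro/Neo replicate 1 lay between the other treated hearts. Cpt1a, the liver isoform and the less abundant one here, was at 22.2, 16.4 and 16.3 TPM in the vehicle hearts and 14.2, 17.6 and 20.6 TPM in the Paro/Neo hearts (log2 change -0.06 ± 0.17 SE, adjusted p 0.941), highest in vehicle replicate 1 and lowest in Paro/Neo replicate 1. The Cpt1b to Cpt1a ratio of levels was lowest in vehicle replicate 1 (10.1) and highest in Paro/Neo replicate 1 (18.2), with 13.2 and 13.9 in the other 2 treated hearts. A readthrough gene model, Gm44502, holds 92.0% of the 76-base windows of the longest Cpt1b transcript and was not among the listed features, so reads of that model cannot be told apart from those of Cpt1b. The inner membrane transferase Cpt2 (158 TPM ± 3.11 against 138 TPM ± 32.3), the carnitine carrier Slc25a20 (234 TPM ± 30.6 against 236 TPM ± 19.0) and Mlycd, which removes the CPT1 inhibitor malonyl-CoA (53.2 TPM ± 3.18 against 56.5 TPM ± 4.01), had log2 changes of -0.22, 0.02 and 0.09. Paro/Neo replicate 1 alone was low for Cpt2, at 0.657 of the mean of the other 2 treated hearts.

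The acyl-CoA dehydrogenases, which catalyse the first step of each turn for chains of different length, did not separate the groups. Acadm, the medium chain enzyme, was at 2244, 1952 and 2211 TPM in the vehicle hearts and 1745, 2137 and 1994 TPM in the Paro/Neo hearts (log2 change -0.13 ± 0.11 SE, adjusted p 0.795). The log2 changes of Acadl, Acadvl and Acads were -0.05, -0.15 and -0.01. For Acadm, Acadl and Acadvl the lowest heart was again Paro/Neo replicate 1, and without it the change of Acadl turned to 0.14. Of the Acadvl exon bases, 42.9% are also exon of Dvl2 on the opposite strand, and while the library kit keeps the strand, the strand setting of the counting is not given in the sources used here. Both subunits of the electron transfer flavoprotein were higher in every treated than in every vehicle heart. Etfb was at 1259.5, 1307 and 1392 TPM in the vehicle hearts and 1594, 1526 and 1409 TPM in the Paro/Neo hearts (log2 change 0.19 ± 0.10 SE, adjusted p 0.693), and Etfa at 1409 TPM ± 40.2 against 1523 TPM ± 93.0 (log2 change 0.11 ± 0.09 SE, adjusted p 0.781). Etfdh, which passes their electrons to ubiquinone, was at 1131 TPM ± 86.9 against 1124 TPM ± 106 with a log2 change of -0.01. A second gene model, Gm45233, shares 66.3% of the Etfb windows of 76 bases and was not listed either.

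Later steps of the spiral held 1 gene whose groups did not overlap. Hadh, the short chain hydroxyacyl-CoA dehydrogenase, was at 344, 301 and 334 TPM in the vehicle hearts and 458, 416 and 348 TPM in the Paro/Neo hearts, a ratio of means of 1.25 (log2 change 0.31 ± 0.12 SE, adjusted p 0.590). Paro/Neo replicate 3 was close to the highest vehicle heart. Acaa2, the matrix thiolase, was at 1481, 1183 and 1271 TPM in the vehicle hearts and 982, 1236 and 1214 TPM in the Paro/Neo hearts (log2 change -0.20 ± 0.13 SE, adjusted p 0.748), and Echs1, the short chain hydratase, had a log2 change of -0.02. Hadha and Hadhb encode the alpha and beta subunits of the mitochondrial trifunctional protein and start head to head on chromosome 5. Hadha was at 1017, 781 and 1019 TPM in the vehicle hearts and 743, 1039 and 897 TPM in the Paro/Neo hearts (log2 change -0.08 ± 0.16 SE, adjusted p 0.917), while Hadhb, shown in full because of its values, was at 701, 544 and 684 TPM in the vehicle hearts and 795, 681 and 689 TPM in the Paro/Neo hearts (log2 change 0.17 ± 0.13 SE, adjusted p 0.765). In 5 hearts the level of Hadhb was 0.655 to 0.768 of that of Hadha, and in Paro/Neo replicate 1 it was 1.07. In that heart Hadha was the lowest and Hadhb the highest of the 6. The 85 bases between the annotated ends of the 2 genes are shown because a single stretch lies upstream of both members, whose values parted in 1 library. They are given on the + strand of GRCm38, chr5:30155163-30155247, from RefSeq sequence of GRCm38.p6, in lower case throughout.
Hadha-Hadhb gap: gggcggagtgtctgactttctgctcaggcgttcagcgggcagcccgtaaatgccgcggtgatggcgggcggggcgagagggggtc

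The 4 auxiliary enzymes, which prepare unsaturated fatty acids for the spiral, all had positive log2 changes. Eci1, an enoyl-CoA isomerase of the matrix, was at 553, 515 and 517 TPM in the vehicle hearts and 880.1, 611 and 607 TPM in the Paro/Neo hearts, a ratio of means of 1.32 (log2 change 0.38 ± 0.15 SE, adjusted p 0.593). Paro/Neo replicate 1 was far above the others, and without it the groups still did not overlap, with a log2 change of 0.20 (adjusted p 0.575, range over the alternatives 0.476 to 0.896). Decr1, the dienoyl-CoA reductase, was at 558, 511 and 572 TPM in the vehicle hearts and 717, 594 and 593 TPM in the Paro/Neo hearts (log2 change 0.21 ± 0.11 SE, adjusted p 0.703), again highest in Paro/Neo replicate 1. Eci2 and Ech1 overlapped between groups, with log2 changes of 0.08 and 0.09. Paro/Neo replicate 1 had the highest value for all 4 of these genes, whose sum was 4171, 3529 and 4163 TPM in vehicle and 4917, 4059 and 4173 TPM in treated hearts. Of the other treated hearts, the second lay within the vehicle range and the third level with its top.

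Pdk4 and Ucp3, like Angptl4, had their highest level in vehicle replicate 1. Pdk4, the kinase that shuts pyruvate dehydrogenase and spares glucose, was at 344, 183 and 137 TPM in the vehicle hearts and 168, 167 and 169 TPM in the Paro/Neo hearts. The treated hearts differed by less than 3 TPM, whereas vehicle replicate 1 was 2.15 times the mean of the other 2 vehicle hearts (log2 change -0.29 ± 0.29 SE, adjusted p 0.814). Ucp3, an uncoupling protein of muscle mitochondria, was at 57.6, 17.5 and 11.1 TPM in the vehicle hearts and 19.4, 20.7 and 30.2 TPM in the Paro/Neo hearts, with vehicle replicate 1 4.03 times as high as the mean of the others. The log2 change of Ucp3 was 0.03 ± 0.51 (SE) with all libraries and 0.68 ± 0.25 without vehicle replicate 1 (adjusted p 0.735, range over the alternatives 0.533 to 0.997). Pdk4 turned from -0.29 to 0.08 when that heart was left out. Skeletal muscle also expresses Ucp3, and the fast myosin genes Myh1, Myh2 and Myh4 were at most 0.0990 TPM in any library. Other markers of that list were detected, with Mylpf at 2.18 to 3.77 TPM, Tnni2 at 2.08 to 4.81 TPM and Tnnt3 at up to 1.6 TPM, and the sum of all 8 was 7.29 to 9.39 TPM in vehicle and 5.39 to 8.74 TPM in treated hearts. Their part in the Ucp3 values was not tested.

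**Figure D4:**
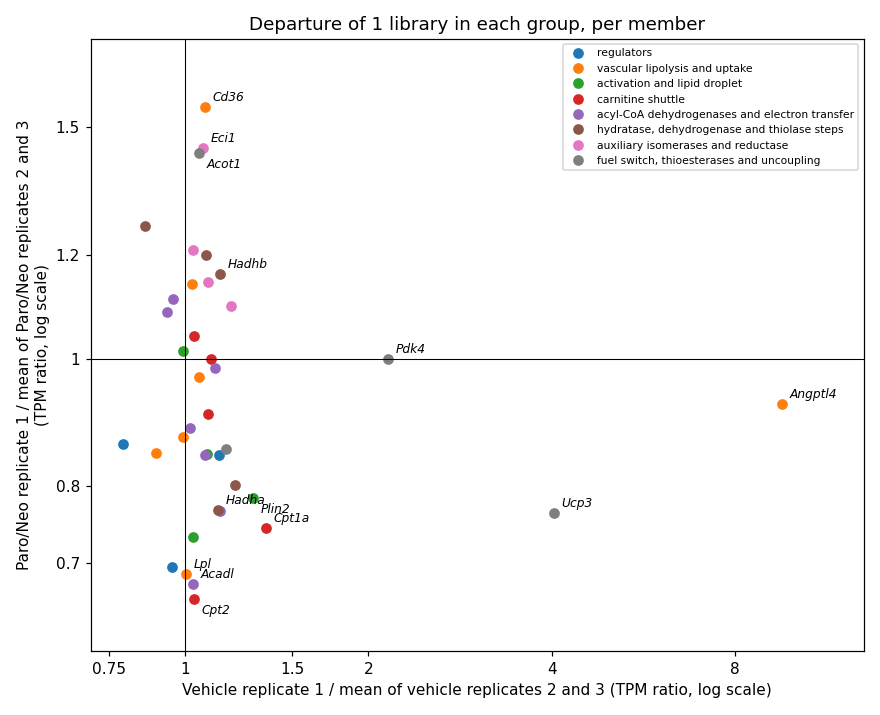
For each member, TPM in vehicle replicate 1 over the mean of vehicle replicates 2 and 3 (horizontal) against TPM in Paro/Neo replicate 1 over the mean of Paro/Neo replicates 2 and 3 (vertical), both on log axes and coloured by step. Angptl4 (9.56), Ucp3 (4.03) and Pdk4 (2.15) depart to the right, while the other members lie between 0.789 (Ppara) and 1.36 (Cpt1a) on the horizontal axis. Along the vertical axis the members spread from 0.657 for Cpt2 to 1.55 for Cd36.

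A large excess in vehicle replicate 1 was limited to a few members, although most members lay somewhat above the mean of the other vehicle hearts. Beyond Angptl4, Ucp3 and Pdk4, only Cpt1a (1.36) and Plin2 (1.29) reached 1.25 times the mean of the other vehicle hearts, and Ppara itself was at 0.789 of it. Members of the beta-oxidation spiral in that heart lay between 0.859 (Echs1) and 1.21 (Acaa2). In Paro/Neo replicate 1, by contrast, 4 members were at 1.25 times the mean of the other treated hearts or more and 10 at 0.8 or less. The deviations of that library followed transcript GC content over all genes (Spearman coefficient -0.35 across genes), and those of the other libraries had coefficients of -0.11 to 0.30, the highest in vehicle replicate 2. Over the 39 members the coefficient for Paro/Neo replicate 1 was -0.06. With the GC correction the log2 change of Cd36 went from 0.25 to 0.15 and that of Hadhb from 0.17 to 0.08. These are the members of lowest GC content (38.4% and 39.1%), and both were highest in Paro/Neo replicate 1. Other members moved the other way with the correction. The log2 change of Eci1, at 53.7% GC and also highest in that library, went from 0.38 to 0.43, and that of Cpt1b from 0.30 to 0.35. The part of GC content in these values was not tested. The Spearman coefficients describe genes within 1 library, and genes are not independent replicates.

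The thioesterases Acot1 and Acot2, cytosolic and mitochondrial enzymes that release free fatty acid from acyl-CoA, are neighbours on chromosome 12. Acot1 was at 5.88, 4.49 and 6.66 TPM in the vehicle hearts and 10.2, 8.92 and 5.35 TPM in the Paro/Neo hearts (log2 change 0.43 ± 0.23 SE, adjusted p 0.705), with the groups overlapping through Paro/Neo replicate 3. Acot2 was at 41.6, 33.5 and 37.8 TPM in the vehicle hearts and 36.3, 41.2 and 43.8 TPM in the Paro/Neo hearts (log2 change 0.10 ± 0.12 SE, adjusted p 0.841). They share part of their sequence: 14.7% of the 76-base windows of Acot1 occur in Acot2 and 20.3% of those of Acot2 in Acot1. Reads from these shared parts could be split between them, and single values are uncertain to that extent.

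PPAR receptors bind with RXR to a direct repeat of the letters AGGTCA spaced by 1 base. The motif AGGTCANAGGTCA was searched on both strands of windows from 250 bases before to 50 bases after annotated starts, with at most 2 mismatches and N free, using RefSeq sequence of GRCm38.p6. No other motif was searched. Windows were found for 31 of the 39 members, 35 windows in all. None held the motif with 0 or 1 mismatch, and 6 of 35 (17.1%), each of another gene, held it with 2: Ucp3, Cd36, Plin2, Echs1, Etfa and Slc25a20. Of all 32817 windows of the genome's genes, 3.86% did. A match is a description of letters and no evidence of binding, and windows this short leave out distal sites. Of the 3 members that were high in vehicle replicate 1, Ucp3 held a match, Pdk4 had a window without one, and Angptl4 is not among the windows. The stretches upstream of Ucp3, Cd36 and Plin2 are shown 5′ to 3′ on the strand of the gene because these 3, among the 6 with a match, are the genes whose values in every heart are given above. Capitals mark the match, which for Cd36 and Plin2 lies on the other strand and reads as its reverse complement. Positions on GRCm38 are chr7:100472741-100472989 (+ strand) for Ucp3, chr5:17835897-17836146 (- strand) for Cd36, at an annotated start inside the gene model, and chr4:86670061-86670309 (- strand) for Plin2.
Ucp3: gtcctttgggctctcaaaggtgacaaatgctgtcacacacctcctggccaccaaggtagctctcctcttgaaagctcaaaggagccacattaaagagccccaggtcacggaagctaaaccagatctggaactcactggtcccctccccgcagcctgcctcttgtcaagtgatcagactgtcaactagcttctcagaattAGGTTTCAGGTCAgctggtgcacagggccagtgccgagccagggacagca
Cd36: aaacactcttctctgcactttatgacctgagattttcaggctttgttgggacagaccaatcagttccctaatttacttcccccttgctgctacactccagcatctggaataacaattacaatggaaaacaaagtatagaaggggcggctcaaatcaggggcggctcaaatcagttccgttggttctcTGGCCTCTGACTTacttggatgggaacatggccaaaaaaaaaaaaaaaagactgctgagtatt
Plin2: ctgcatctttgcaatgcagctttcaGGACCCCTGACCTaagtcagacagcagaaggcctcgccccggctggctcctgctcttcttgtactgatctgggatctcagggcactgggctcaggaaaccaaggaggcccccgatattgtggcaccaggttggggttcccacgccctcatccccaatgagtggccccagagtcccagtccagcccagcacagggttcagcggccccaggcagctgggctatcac

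No other gene of the pathway passed the threshold. A further 131 genes in 8 lists were examined, of which 119 could be tested, among which 57 had positive and 62 negative changes (median -0.01 on the log2 scale, limma, 0 past an adjusted p of 0.05, and 5 higher and 6 lower at an unadjusted p under 0.05). The smallest adjusted p was that of Acsl6, a long chain acyl-CoA synthetase gene, at 3.38, 2.04 and 2.32 TPM in the vehicle hearts and 4.58, 5.54 and 6.68 TPM in the Paro/Neo hearts (log2 change 0.89 ± 0.19 SE, adjusted p 0.209). Each treated heart lay above each vehicle heart. Among the other uptake and binding genes, 6 of 12 were higher, and Cav1, the caveolin gene of endothelium and other cells, was at 446, 502 and 513 against 403, 379 and 359 TPM (log2 change -0.35 ± 0.10 SE, adjusted p 0.409). Of 24 receptors and coactivators 11 were higher. Klf15, a transcription factor known for its part in cardiac lipid use, was at 27.5, 16.3 and 23.5 against 28.3, 32.5 and 33.1 TPM (log2 change 0.49 ± 0.18 SE, adjusted p 0.568), and Pparg, expressed at a low level, at 13.8 TPM ± 1.08 against 11.8 TPM ± 0.193 (mean ± SD over 3 mice, vehicle first, adjusted p 0.699).

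In the list of lipolysis and triglyceride storage 10 of 17 tested genes were higher. Dgat2, which completes triglyceride synthesis, was at 88.1, 77.0 and 86.7 TPM in vehicle and 106, 104 and 109 TPM in treated hearts (log2 change 0.34 ± 0.09 SE, adjusted p 0.422), and Mgll, the monoglyceride lipase gene, at 84.8, 86.6 and 81.7 and 59.2, 63.7 and 76.5 TPM (log2 change -0.35 ± 0.12 SE, adjusted p 0.503). Both sets of values were without overlap, in opposite directions. The peroxisomal list had 12 of 16 tested genes lower, among them the thiolase gene Acaa1a at 26.4, 24.5 and 29.2 against 19.1, 20.4 and 19.1 TPM (log2 change -0.43 ± 0.11 SE, adjusted p 0.320) and Ehhadh at 20.8, 14.0 and 13.4 against 10.2, 13.5 and 12.7 TPM (log2 change -0.36 ± 0.18 SE, adjusted p 0.698). The ketone enzymes Bdh1 (112 TPM ± 7.90 against 96.1 TPM ± 3.45) and Oxct1 (1756 TPM ± 5.93 against 1554 TPM ± 90.9, mean ± SD over 3 mice, vehicle first) were lower in each treated heart, with adjusted p of 0.649 and 0.696, and 5 of 9 genes of that list were higher.

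Carnitine supply (5 of 8 higher) and the other mitochondrial acyl-CoA enzymes (8 of 19 higher) had smallest adjusted p of 0.694 and 0.651, with Cpt1c at 1.21 TPM ± 0.406 against 0.631 TPM ± 0.380, Crat at 147 TPM ± 1.25 against 160.4 TPM ± 9.33, Nudt19 at 87.2 TPM ± 7.26 against 65.7 TPM ± 18.6 and Acad8 at 48.1 TPM ± 4.86 against 41.7 TPM ± 3.71. Among 14 other genes of the fuel switch 8 were higher. Pdk2, the constitutive pyruvate dehydrogenase kinase of the heart, was at 93.0, 106 and 86.6 against 107, 113 and 125 TPM (log2 change 0.27 ± 0.11 SE, adjusted p 0.633), with no overlap between the groups. Txnip, a glucose-responsive inhibitor of glucose uptake, was at 647, 185 and 283 TPM in the vehicle hearts and 576, 612 and 595 TPM in the Paro/Neo hearts (log2 change 0.88 ± 0.38 SE, adjusted p 0.651). As with Angptl4, vehicle replicates 2 and 3 were low for Txnip and vehicle replicate 1 was not, but here the treated hearts lay closer to that heart, though below it.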

How the data were processed

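Messenger RNA of the ventricles of 6 mice was sequenced in 76-base reads. The authors deposited TPM values, scaled for gene length and library total: they are shares, so a rise in abundant genes lowers the values of others. The submitters' processing notes list, without roles, STAR 2.5.3a, featureCounts, Subread, edgeR and FastQC 0.11.5, with the build mm10. No source used here names the annotation. Ratios of TPM of the same gene between libraries gave whole reads within 0.001 read for 17574 of 17574 genes above 0. The smallest read numbers that fit were taken. A gene above 0 in a single library fits in any case, and 14330 genes were above 0 in all 6.

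The fit was limma 3.58.1 with trend (R 4.3.3) on log2(TPM + 1), over 12409 genes that reached 1 TPM in 3 libraries, with all 6 libraries, no covariate, Benjamini-Hochberg adjustment over all genes and a threshold of 0.05. On data simulated for this comparison (12409 genes) it called 76% of log2 changes of 1 and 96% of those of 2, and 8 unchanged genes. The simulated noise was independent between genes, without departures of whole libraries. Changes as small as those of the members (log2 -0.49 to 0.46) were not simulated. Members and lists were chosen with earlier results of these data known. By rule, values in every library are given for the 12 members with the smallest unadjusted p and 18 well known ones, and 2 genes or more are named from each list of other pathway genes. Positions are from GENCODE M21 (GRCm38) and promoters from RefSeq. Alternatives were other pseudocounts, filters and scalings, a GC correction, array weights, voom on the inferred reads, a replicate block and leaving out each library. The fit without vehicle replicate 1 and Paro/Neo replicate 1 together was added after the data were seen.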

Additional observations from a re-analysis of the deposited data

How the results depend on the processing

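No member passed the threshold in any of the 17 alternatives. Over all genes, 17 passed in the reported fit, 6 without a filter on low values, 26 with array weights and 5 (without vehicle replicate 1) to 27 (without Paro/Neo replicate 2) when 1 library was left out, and 0 without vehicle replicate 1 and Paro/Neo replicate 1 together (limma). With a replicate block 27 passed. The labels do not say whether same-numbered mice are paired. Replicate numbers here are those of the sample titles, and the deposited library names number the treated libraries differently. Deviations from the group means had correlations of -0.05, -0.04 and -0.12 between samples of the same number by title. Over all pairs of a vehicle and a treated library they ranged from -0.12 to 0.10. These values cannot decide the question, because deviations from means of 3 libraries also carry departures of single libraries. Members at an unadjusted p under 0.05 numbered 5, and 3 to 7 when libraries were left out. They numbered 3 without vehicle replicate 2 or 3, and 7 without vehicle replicate 1 and Paro/Neo replicate 1 together. Of the 39 members, 24 kept the sign of the log2 change in all 17 alternatives and 15 did not. The ranges when libraries were left out were Lpl -0.20 to 0.083, Gpihbp1 -0.18 to 0.00131, Angptl4 -0.020 to 1.46, Plin5 -0.0079 to 0.096, Cpt1a -0.18 to 0.21, Slc25a20 -0.089 to 0.10, Acadl -0.15 to 0.15, Acadvl -0.24 to 0.045, Acads -0.11 to 0.059, Etfdh -0.084 to 0.057, Hadha -0.20 to 0.11, Echs1 -0.21 to 0.065, Ech1 -0.015 to 0.15, Pdk4 -0.58 to 0.082 and Ucp3 -0.45 to 0.80. Array weights turned Lpl to 0.026, Gpihbp1 to 0.040, Acadl to 0.085, Etfdh to 0.051, Hadha to 0.026 and Ucp3 to -0.088. Quantile normalization turned Lpl to 0.026 and Slc25a20 to -0.025, and median-of-ratios scaling turned Acads to 0.012 and Etfdh to 0.0088. The GC correction turned Acads to 0.058 and Echs1 to 0.00138, and voom turned Ucp3 to -0.034. The cause was not tested. Values without 1 library rest on 2 mice in that group, and 3 mice a group limit what can be detected.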

Other observations

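Among the other pathway genes, Lipe, the hormone-sensitive lipase gene, was also highest among the vehicle hearts in vehicle replicate 1, and was picked after its values were seen. It was at 10.8, 6.87 and 5.47 TPM in the vehicle hearts and 8.35, 8.86 and 11.4 TPM in the Paro/Neo hearts, so the third treated heart lay above that vehicle heart.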
